A study of Mus musculus with 6 samples.

Results

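The DNA recovered with an antibody against SMAD2 was set against the DNA recovered with an antibody against SMAD4 in undifferentiated mouse embryonic stem cells, on promoter tiling arrays (chromatin immunoprecipitation on array, ChIP-chip). A probe was included when its spot carried no outlier flag on either antibody's array and its immunoprecipitate signal lay well above background on both, a flag set by the scanner software. This left 437208 of 474380 probes, 221316 of 237195 on array 1 and 215892 of 237185 on array 2. The series holds 6 arrays for 3 antibodies, of which the 4 arrays for SMAD2 and SMAD4 were compared here.

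All groups used R1 cells, an established embryonic stem cell line, grown without feeder cells in knockout serum replacement with leukemia inhibitory factor, and the labels name no treatment and no altered allele. The SMAD2 group was 1 chromatin preparation on array 1 and array 2, and the SMAD4 group likewise, with an antibody raised against the linker segment of each human protein. Each group is 1 biological replicate per the series' design text, so no difference below has a replicate check, no p-value is given, and each SD or SE is over probes and holds no spread between preparations. The title and sample type of the SMAD2 arrays name Smad2, but their extraction text names an anti-Smad1/5 antibody, so "SMAD2" below means the arrays labelled so. Feature Extraction software of version 9.1.3.1 read the SMAD2 scans, made at 10 micrometres per pixel, while version 9.5.3.1 read the SMAD4 scans, made at 5 micrometres, so antibody, extraction and scan cannot be told apart.

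SMAD proteins carry signals of the TGF-beta family from receptors at the cell surface to genes. SMAD2 is phosphorylated by receptors for Activin, Nodal and TGF-beta, and it joins SMAD4, the partner that the Activin and BMP branches share. In mouse embryonic stem cells the Nodal branch is known for its targets Lefty1 and Lefty2, and SMAD complexes are recruited to DNA with partners such as FOXH1. SMAD4 itself contacts a short DNA box, CAGAC, while the SMAD2 form with the additional exon does not bind DNA directly.

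The promoters of 5 genes are shown because a stretch of neighbouring probes that differed between the antibodies overlapped their start sites, and the sequences let the CAGAC box be read beside the values. They are RefSeq sequences on build GRCm38.p6, 250 bases before to 50 after each gene's start, written 5′ to 3′ on the gene's strand, with CAGAC or its complement GTCTG in capitals. Adora2b is at chr11:62248734-62249033 on the plus strand, Fstl3 at chr10:79777024-79777323 on the plus strand and Phf8 at chrX:151520422-151520721 on the plus strand. Pde1a is at chr2:80129363-80129662 on the minus strand and Zscan21 at chr5:138116655-138116954 on the plus strand. The signal was higher with SMAD2 at the first 3 and higher with SMAD4 at the last 2.
Adora2b: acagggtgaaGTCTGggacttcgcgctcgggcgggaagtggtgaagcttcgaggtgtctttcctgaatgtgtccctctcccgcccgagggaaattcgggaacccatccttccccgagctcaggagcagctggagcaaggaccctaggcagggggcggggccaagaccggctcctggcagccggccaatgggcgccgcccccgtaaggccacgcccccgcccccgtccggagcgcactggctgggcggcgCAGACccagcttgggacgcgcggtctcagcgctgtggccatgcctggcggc
Fstl3: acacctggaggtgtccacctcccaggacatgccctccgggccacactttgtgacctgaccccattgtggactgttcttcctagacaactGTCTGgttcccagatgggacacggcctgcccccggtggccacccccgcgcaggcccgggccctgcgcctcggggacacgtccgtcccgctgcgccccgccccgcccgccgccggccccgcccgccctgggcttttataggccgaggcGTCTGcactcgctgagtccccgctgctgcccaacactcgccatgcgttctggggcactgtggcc
Phf8: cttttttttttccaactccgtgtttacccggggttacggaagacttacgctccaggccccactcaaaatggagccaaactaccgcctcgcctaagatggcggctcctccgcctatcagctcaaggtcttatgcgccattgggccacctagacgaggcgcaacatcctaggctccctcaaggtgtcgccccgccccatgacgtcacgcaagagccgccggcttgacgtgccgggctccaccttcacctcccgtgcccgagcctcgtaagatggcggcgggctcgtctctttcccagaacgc
Pde1a: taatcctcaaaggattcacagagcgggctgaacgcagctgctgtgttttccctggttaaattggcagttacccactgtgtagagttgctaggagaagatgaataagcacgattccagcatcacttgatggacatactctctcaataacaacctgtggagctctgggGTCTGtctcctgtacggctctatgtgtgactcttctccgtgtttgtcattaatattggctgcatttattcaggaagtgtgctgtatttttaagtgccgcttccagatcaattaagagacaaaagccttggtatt
Zscan21: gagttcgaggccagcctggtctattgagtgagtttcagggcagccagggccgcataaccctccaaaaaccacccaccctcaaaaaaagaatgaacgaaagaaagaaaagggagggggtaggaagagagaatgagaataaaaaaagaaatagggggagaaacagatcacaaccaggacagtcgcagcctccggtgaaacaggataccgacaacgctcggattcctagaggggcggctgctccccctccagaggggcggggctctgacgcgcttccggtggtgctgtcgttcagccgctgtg
Adora2b and Fstl3 hold 2 boxes each, Pde1a holds 1, and Phf8 and Zscan21 hold none in this window. These 5 are examples and do not stand for all such promoters. Sox8 and Gas1, also higher with SMAD2 at their starts, hold none. Among genes called by their median over probes, CAGAC was in 46.6% of promoters higher with SMAD2 and 43.0% higher with SMAD4, against 48.5% of all.

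Levels are log2 processed immunoprecipitate signals relative to the array's median, and a difference is SMAD2 minus SMAD4. Immunoprecipitate spots were brighter with SMAD2, with a median ratio to local background of 13.9 on array 1 and 14.1 on array 2, than with SMAD4, with 5.24 and 5.14. Even so, 13182 and 16915 otherwise clean probes were not well above background with SMAD2, against 897 and 511 with SMAD4, so the set of probes was limited mainly by the SMAD2 arrays. Levels spread slightly more with SMAD2, with an SD of 1.44 and 1.42, than with SMAD4, with 1.28 and 1.27. The single-probe difference had an SD of 0.92 and 0.91 and a median of 0.14 and 0.13 on arrays 1 and 2, so the typical probe lay a little higher with SMAD2 even after centring each array.

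The levels of both immunoprecipitates ran together across the genome. Pearson's r across probes was 0.78 on each array, from 221316 and 215892 probes, which share their sequence, array position and labelling between the antibodies. In probes of 60 bases, the longest on the array, r was 0.63 on each, and in probes of 45 bases, the shortest, it was 0.83 and 0.82. With the SMAD1/5 antibody, r was 0.58 and 0.57 for SMAD2 and 0.62 and 0.59 for SMAD4 over the same probes. The inputs of the SMAD2 and SMAD4 arrays, both whole cell extract of R1 cells, reached r of 0.50 on each array. Once each immunoprecipitate was divided by its own input, r fell to 0.052 and 0.049, so the levels ran together and the ratios over input hardly did. The antibodies' difference at a probe in turn correlated with the difference of the inputs at that probe, with r of 0.57 and 0.58.

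Of 17038 genes with probes, 16800 had at least 3 of them in the set, with a median of 26, and each gene's difference was its median over probes. The median of a difference need not equal the difference of the 2 median levels printed beside it. Across genes the SMAD2 and SMAD4 levels had r of 0.86. The difference had a median of 0.13 and an SD of 0.32, from -1.21 at Ear14 to 3.58 at Skint3. At a difference of 1.5-fold, 1405 genes were higher with SMAD2, 8.36% of those measured, and 99 were higher with SMAD4, 0.589%. By the same rule the inputs differed at more genes, 3148 higher on the SMAD2 arrays, or 18.7%, and 1586 higher on the SMAD4 arrays, or 9.44%. The uneven split depended on how the arrays were scaled: with the difference centred on its own median, which takes off the 0.13, it was 739 against 303 genes, after quantile normalisation 675 against 422, and with the intensity trend removed 622 against 361. With the input difference subtracted it turned round, to 610 higher with SMAD2 and 1677 higher with SMAD4, and in the authors' deposited log2 values it was 338 against 1077.

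**Figure D1:**
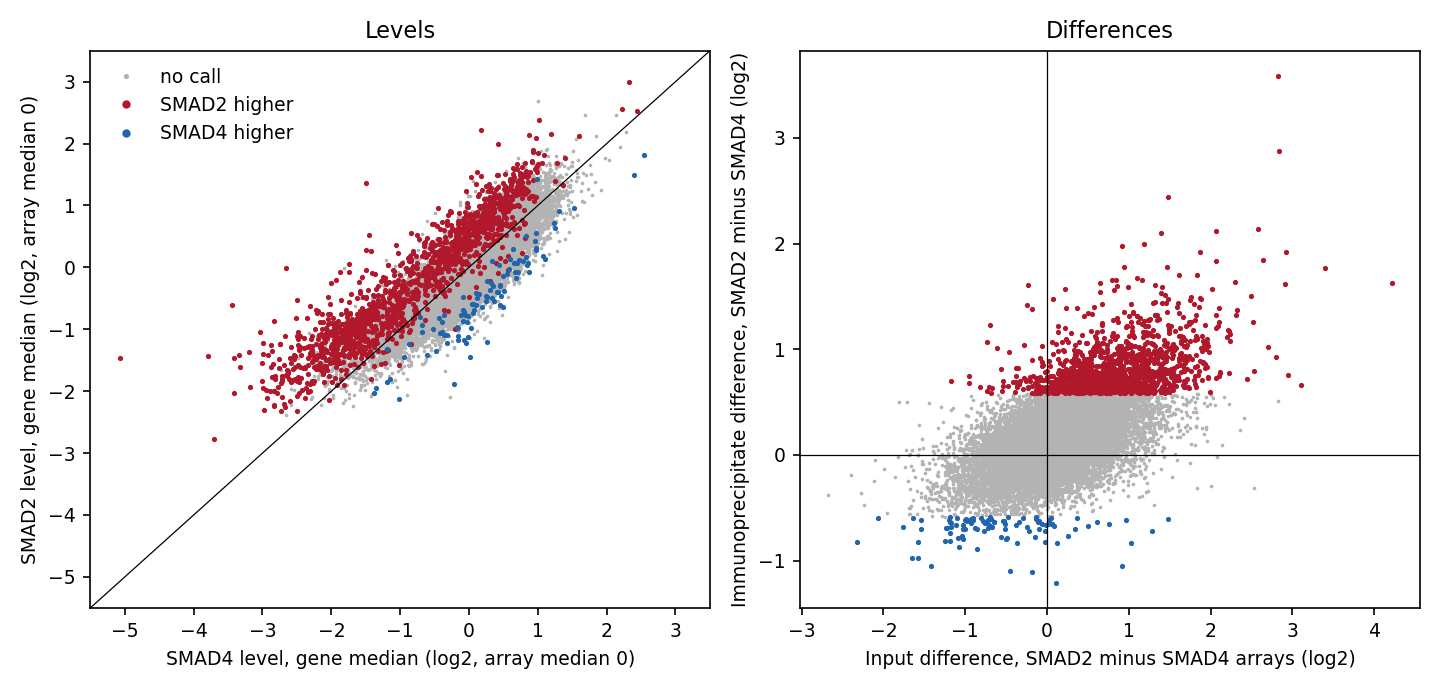
Left, median level of each of 16800 genes with SMAD2 (vertical axis) against SMAD4 (horizontal axis), log2 relative to the array median, with the line of equal levels; right, the immunoprecipitate difference (vertical) against the input difference (horizontal), log2, SMAD2 minus SMAD4. Red points are the 1405 genes called higher with SMAD2 and blue points the 99 called higher with SMAD4, and most red points lie at an input difference above 0.

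The genes called higher with SMAD2 mostly had weak signal. Their median level was -0.26 with SMAD2 and -0.82 with SMAD4, and 798 of the 1405 lay below the array median with both antibodies, against 383 above it with both. The inputs of 1321 of them, 94.0%, differed in the same direction, and 910 passed the same 1.5-fold rule in the inputs. Relative to input, 48 of the 1405 were higher with SMAD2 by that rule, beside 610 of all 16800 genes. The opposite sign was seen in 958, where the median over all genes was itself -0.08 relative to input. The SMAD1/5 level, extracted with the same software version as SMAD2 and scanned at the same resolution as SMAD4, was nearer to SMAD2 in 609 of the 1405 genes and nearer to SMAD4 in 796, beside 7134 and 9666 of all genes.

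Among the genes with the largest excess of SMAD2 signal were genes with little known use in stem cells. Skint3, of a family that supports T cells of the skin, was at -1.46 with SMAD2 and -5.07 with SMAD4, a difference of 3.58 ± 0.77 (SD over 7 probes) with an input difference of 2.82. This was a gap between a dim signal and a far dimmer one, and SMAD1/5 lay between them at -3.30. Cyp2b9, a cytochrome P450 gene, had -0.60 with SMAD2 and -3.44 with SMAD4, a difference of 2.87 ± 1.49 over 14 probes, again with an input difference of 2.83. Dpp10, which encodes a potassium channel subunit, had -0.08 with SMAD2 and -1.87 with SMAD4 over 4 probes, and its difference of 2.44 kept its sign under all 11 alternative settings, from 0.58 to 2.47. The olfactory receptors Olfr1008, Olfr624, Olfr291 and Olfr1205 followed, with differences from 2.13 down to 1.99. The microRNA genes Mir465 and Mir448 on the X chromosome had 1.98 and 1.92, with input differences of 0.92 and 2.92. Mir448 illustrates the tie to the input: it lay at -0.01 with SMAD2 and -2.66 with SMAD4, and with the inputs subtracted its difference was -1.52. The pheromone receptor gene Vmn1r29 had 1.92 over 3 probes.

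The 99 genes called higher with SMAD4 had median levels of -0.55 with SMAD2 and 0.25 with SMAD4. Their inputs differed in the same direction in 80. Relative to input, 19 were higher with SMAD4 by the 1.5-fold rule, beside 1677 of all 16800 genes. The SMAD1/5 level was nearer to SMAD2 in 21 of them and nearer to SMAD4 in 78. Ear14, a ribonuclease gene of eosinophils, had the largest excess, with -0.77 with SMAD2, -0.37 with SMAD4 and a difference of -1.21 ± 0.61 over 3 probes, while the inputs differed by 0.11. Normexp background correction turned its sign, to 0.47. Apex1, the main endonuclease of base excision repair, had -0.49 with SMAD2 and 0.34 with SMAD4, a difference of -1.10 ± 1.05 over 7 probes and an input difference of -0.45. Its difference stayed below 0 in all 11 alternatives, from -1.23 to -0.26. The replication-dependent histone genes H2ac8 and H3c1 had -1.10 and -1.05, with input differences of -0.18 and -1.42. Alms1, a gene of the centrosome and cilium base, had -0.61 with SMAD2 and 0.45 with SMAD4 over 21 probes, the most of these 10. Its difference was -0.89 ± 0.83 and its input difference -0.86. Tmem175, a lysosomal potassium channel gene, had -1.08 with SMAD2 and -0.33 with SMAD4, a difference of -0.87 and an input difference of -1.07. With the inputs subtracted, Alms1 was at -0.18, Tmem175 at -0.17 and H3c1 at 0.15. In Defb2, a defensin gene, and Zfp109, a zinc finger gene, the inputs ran the other way, with immunoprecipitate differences of -1.05 and -0.84 against input differences of 0.92 and 1.03.

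The targets of Activin and Nodal signalling, where SMAD2 and SMAD4 would sit in 1 complex, did not stand apart from other genes. Of 26 listed genes 23 were measured, 0 were called in either direction, against 8.36% higher with SMAD2 and 0.589% higher with SMAD4 of all genes, and their median difference was 0.13, as over all genes. Relative to all genes that median ran from -0.06 to 0.16 over the 11 alternatives, the highest with the inputs subtracted. Lefty1, a secreted Nodal inhibitor, lay at 0.83 with SMAD2 and 1.02 with SMAD4, and its neighbour Lefty2 at 0.82 with SMAD2 and 0.73 with SMAD4. Both genes were therefore above the array median with each antibody, and their differences were 0.05 ± 0.72 (25 probes) and 0.13 ± 0.80 (27 probes). With the intensity trend removed they were -0.32 and -0.28. Nodal, the ligand itself, had 0.30 with SMAD2 and 0.57 with SMAD4, a difference of -0.19 ± 0.84 over 30 probes, with the inputs at -0.81. The feedback inhibitor Smad7 had 0.57 with SMAD2 and 0.45 with SMAD4, and the corepressor genes Ski and Skil had differences of 0.20 and -0.16. Junb, an AP-1 subunit and early response gene, had the highest SMAD2 level of the list at 1.26, against 1.04 with SMAD4. Foxa2, a pioneer factor of endoderm, had -0.07 with SMAD2 and -0.49 with SMAD4, a difference of 0.51 ± 0.81 over 34 probes, with the inputs at -0.10. Gsc, a homeobox gene of the organizer, had 0.42 with SMAD2 and -0.21 with SMAD4 and a difference of 0.45 ± 1.04 over 36 probes. Otx2 had 0.43, Mixl1 0.26 and Eomes 0.21, the last with inputs at -0.43. Fgf8, at -0.22, was the lowest of the list.

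The BMP targets, which depend on SMAD4 with SMAD1 and SMAD5 rather than with SMAD2, served as the contrast. All 22 listed genes were measured, and 0 were called, beside the same 8.36% and 0.589% of all genes. The median difference was 0.22, or 0.08 above that of all genes and above it in all 11 alternatives, by 0.04 to 0.23. This was not particular to BMP targets. The neural and Hox lists also lay above all genes in all 11 alternatives, by 0.06 to 0.16 and 0.02 to 0.17. The inhibitors of differentiation Id1 and Id2 each had a difference of 0.40, with Id1 at -0.06 with SMAD2 and -0.18 with SMAD4, and Id2 at -0.20 with SMAD2 and -0.37 with SMAD4. Id3 had 0.32 with each antibody, and Id4 0.02 with SMAD2 and -0.11 with SMAD4. Msx2, a homeobox gene, was highest at 0.43 ± 0.89 over 38 probes, with its inputs at 0.62, and Grem1, a secreted BMP antagonist, lowest at -0.09 ± 1.11 over 29 probes. Cdx2, a trophectoderm gene, and Tbx3 had 0.40 and 0.35, with inputs at 0.30 and -0.55. In neither list did any gene's difference exceed the SD over its own probes.

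**Figure D2:**
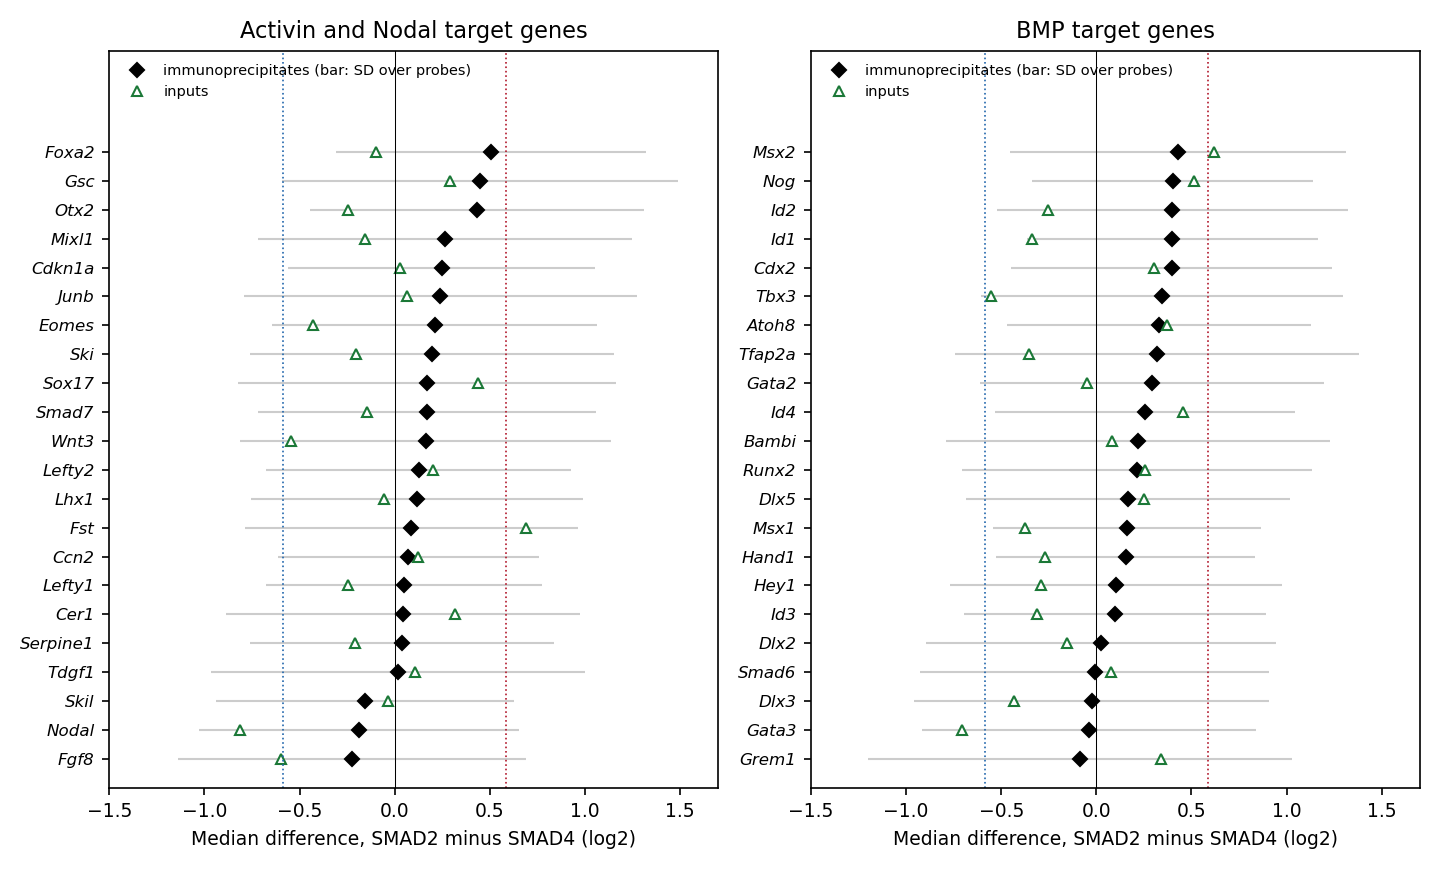
Median difference between immunoprecipitates (diamonds, with the SD over the gene's probes) and between inputs (triangles), SMAD2 minus SMAD4 in log2, for 22 of the 23 Activin and Nodal targets (left) and the 22 BMP targets (right). Dotted lines mark 1.5-fold in either direction, and no diamond reaches them; Foxa2 is the highest at 0.51 and Fgf8 the lowest at -0.22.

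Of 39 genes for ligands, receptors, SMADs and their regulators, 36 were measured, and 1 was called in each direction, 2.78% each against 8.36% and 0.589% of all genes, with a median difference of 0.10. Among ligands, Inhbb, a subunit of Activin B, had 0.74 with SMAD2 and 0.46 with SMAD4, a difference of 0.65 ± 0.89 over 32 probes, with inputs at 0.60. Gdf3, a ligand made in stem cells, had -0.46 with SMAD2 and 0.46 with SMAD4, a difference of -0.68 ± 1.01 over 29 probes, and its inputs differed by -1.18. With the inputs subtracted both signs turned, to -0.054 for Inhbb and 0.61 for Gdf3. Tgfb2 had 0.54, just under the rule, and Bmp4 0.19. Among receptors, Acvr1 was lowest at -0.31 and Acvr1b, an Activin receptor, highest at 0.32, with inputs at -1.04 and -0.20. The SMAD genes lay between -0.14 for Smad5 and 0.35 for Smad2, with Smad3 at 0.30 and Smad4 at -0.06. Foxh1, the DNA-binding partner of SMAD2, had 0.87 with SMAD2 and 0.52 with SMAD4 over 17 probes. Its difference was 0.23, with inputs at 0.75. Tgif1, a corepressor, had -0.22 with SMAD2 and 0.02 with SMAD4 and a difference of -0.38, with inputs at -0.52. With the inputs subtracted the sign also turned in Tgfb2, to -0.37, Acvr1, to 0.23, Foxh1, to -0.53, and Tgif1, to 0.20. It did not turn in Acvr1b, at 0.46.

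The genes of chemosensory receptors carried a large share of the SMAD2 excess. Of 840 measured olfactory receptor genes 272 were called higher with SMAD2, 32.4% against 8.36% of all genes, and 4 higher with SMAD4. Their median levels were -1.10 with SMAD2 and -1.43 with SMAD4, far below the array median. The median difference was 0.40, or 0.27 above that of all genes, and it lay below that of all genes with the inputs subtracted and in the authors' values, with -0.21 as the lowest. Of 110 vomeronasal receptor genes 47 were called higher with SMAD2 and 1 higher with SMAD4, or 42.7% and 0.909%. Their median of 0.52 also turned below that of all genes in those 2 settings. The inputs of both families differed by more than the immunoprecipitates, by 0.64 and 0.69.

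The histone clusters lay at the other end. Their 54 measured genes had a median of -0.06, or 0.19 below that of all genes. Normexp correction and the subtraction of inputs turned this sign. Of the 54, 0 were called higher with SMAD2 and 2 higher with SMAD4, or 0% and 3.70% against 8.36% and 0.589% of all genes. The 2 were H2ac8, over 3 probes, and H3c1, over 6. Of 26 pluripotency genes the median was -0.0036, or 0.14 below all genes, except with the inputs subtracted and in the authors' values, where it lay above. The pluripotency factor gene Esrrb and the growth factor gene Fgf4 were called higher with SMAD2, at 0.64 and 0.62, with inputs at 0.69 and 0.52. They were 7.69% of that list, against 8.36% of all genes. Stat3, the effector of leukemia inhibitory factor, was the lowest of that list, with 0.15 with SMAD2 and 0.79 with SMAD4 and a difference of -0.44. Among 84 ribosomal protein genes, 3 were higher with SMAD2 and 2 with SMAD4, or 3.57% and 2.38% against 8.36% and 0.589% of all genes. Rpl4 had -0.99 with SMAD2 and 0.02 with SMAD4 over 23 probes and a difference of -0.79, with inputs at -0.50, and with the inputs subtracted -0.06 was left. Rps18 had 1.39 with SMAD2 and 0.86 with SMAD4 and a difference of 0.73, although its inputs differed by -0.28. In the list of chromatin regulators, Kdm6a, an X-linked histone demethylase, had 1.03 with inputs at 1.07. Setdb1, a histone methyltransferase gene, had 0.85 ± 1.11 over 8 probes with inputs at -0.04, and stayed called in all 11 alternatives, from 0.59 to 1.05. The neural genes Nes and Sox3 were called higher with SMAD2 at 0.79 and 0.63, with inputs at 0.57 and 0.49, as was the cyclin gene Ccnd2 at 0.71, with inputs at 0.22. Hoxc9 was the 1 called gene of 33 Hox genes, 3.03% against 8.36% of all genes. It had 0.71 while its inputs differed by -0.25, and it stayed called in 5 of the 11 alternatives, with 0.07 as the lowest. Of 32 marker genes of adult tissues 1 was called, 3.13% against 8.36%, the milk casein gene Csn2 at 0.76 with inputs at 0.80.

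**Figure D3:**
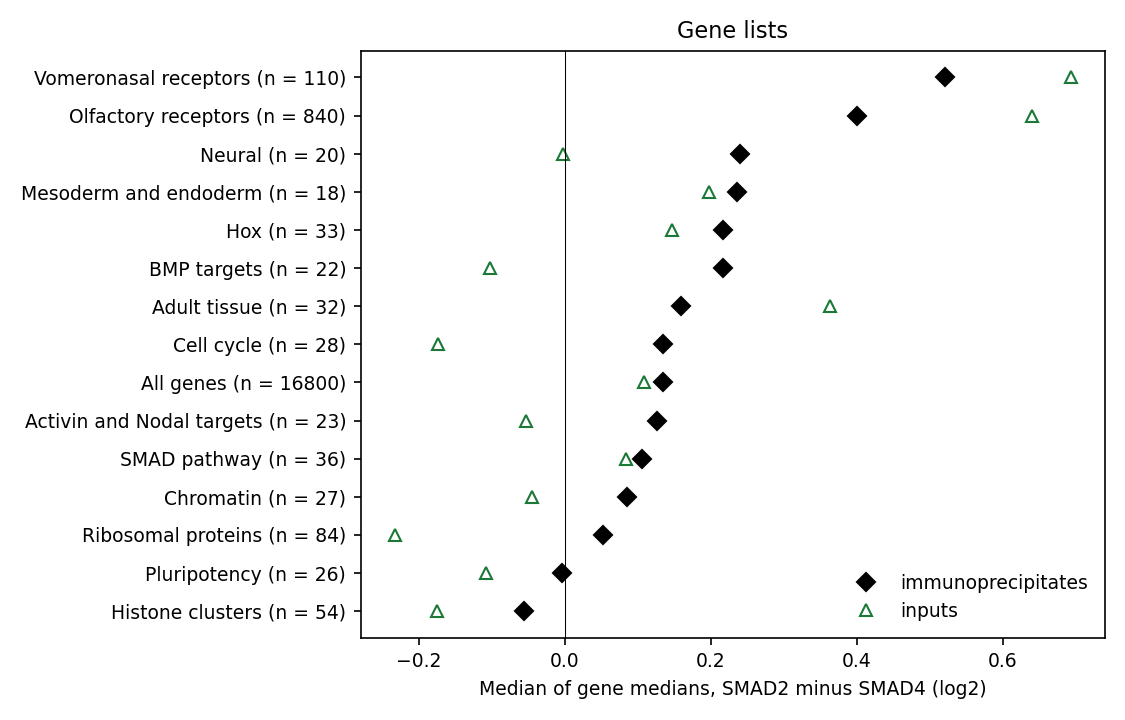
Median over the measured genes of each list of the immunoprecipitate difference (diamonds) and the input difference (triangles), SMAD2 minus SMAD4 in log2, with all 16800 genes as the comparison. The receptor families are highest at 0.52 and 0.40, the Activin and Nodal targets sit at 0.13 beside all genes, and the histone clusters are lowest at -0.06.

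Stretches of neighbouring probes were searched for local differences, since sheared fragments reach several probes. Their positions are those of the array annotation, and the sources used here do not give its build. A window of 500 bp either side of a probe with at least 3 probes was called when its mean difference was at least 2-fold and all its probes had that sign. Of 386869 windows 13460 were higher with SMAD2, 3.48%, and 3081 higher with SMAD4, 0.796%, against 8.42% and 6.07% by the same rule in the inputs. Merged, they made 6162 regions higher with SMAD2 and 1711 higher with SMAD4, in 5114 and 1645 genes, or 30.8% and 9.89% of 16629 genes. The inputs gave 55.7% and 47.4%. At the peak window the inputs differed in the same direction in 5946 of the 6162 SMAD2 regions and in 1550 of the 1711 SMAD4 regions. Relative to input, 221 and 310 peaks were 2-fold in the same direction, or 3.59% and 18.1%. The median level at SMAD2 peaks was 0.68 with SMAD2 and -0.62 with SMAD4, and at SMAD4 peaks -0.92 with SMAD2 and 0.26 with SMAD4. The higher antibody was above the array median in 68.7% of SMAD2 peaks and 67.3% of SMAD4 peaks, and the lower one was below it in 69.7% and 93.7%.

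In the 20 largest regions, 10 in each direction, the mean input differed in the same direction as the immunoprecipitates. At Tekt1, a gene of sperm and cilia, 3 probes, the first at -2685 bp from its start, had -1.90, -2.31 and -0.41 with SMAD2 and 1.13, 0.38 and 0.45 with SMAD4. The inputs of the same 3 probes differed by -3.02, -3.20 and -2.26. In Skint3 the 4 probes of the peak ran from -2.40 to 0.28 with SMAD2 and from -5.89 to -3.51 with SMAD4. Hscb, a chaperone of iron-sulfur cluster assembly, had a mean of -1.42 with SMAD2 and 0.52 with SMAD4, with inputs at -0.48.

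Among Activin and Nodal targets, 9 of 23 genes had a region higher with SMAD2 and 1 a region higher with SMAD4, or 39.1% and 4.35% against 30.8% and 9.89% of all genes. Among BMP targets the counts were 10 and 1 of 22, and in the pathway list 9 and 6 of 36. Gsc had a pair of SMAD2 regions. In the one nearest the start, at chr12:101966964-101967571 in the coordinates of the array annotation, the 4 probes had 0.14, 1.67, 0.78 and 0.44 with SMAD2 and -2.87, 0.97, -1.46 and -0.11 with SMAD4. The differences, of the same sign by the calling rule, were 3.00, 0.71, 2.23 and 0.55. The inputs of these probes differed in the same direction. In the other, about 1667 bp inside the gene, the mean difference was 1.34 ± 0.62 (4 probes) and the mean input difference 0.04, from single inputs of -0.11, 0.75, -1.66 and 1.18 that ran both ways. Fstl3, a secreted Activin antagonist, had a SMAD2 region across its start. The probe at -126 bp had 0.14 with SMAD2 and -3.04 with SMAD4, and the probe at 226 bp 3.09 with SMAD2 and 1.99 with SMAD4. The inputs of these probes differed by 3.32 and 0.49. Over the region the mean input difference was 1.65, and relative to input the mean difference was -0.13. Fstl3 also had a SMAD4 region around position -5419 bp, with a mean difference of -1.03 and a mean input difference of -0.49. Id2 had a mean difference of 1.39 ± 1.32 over 6 probes around position -3164 bp, with a mean input difference of 0.48. Its largest single difference of 4.02 came with an input difference of 3.34. Tbx3 had 1.18 ± 0.60 over 4 probes centred at -178 bp, and its mean input difference of -0.40 was set by 1 probe at -2.92, the others being 0.54, -0.16 and 0.95. Msx1 had 1.02 ± 0.71 over 3 probes inside the gene, with single inputs from -0.41 to 0.32. Smad3, Smad6, Junb, Inhbb and Tgfb2 had SMAD2 regions of 1.24 to 1.57 at their largest, all with inputs in the same direction by 0.95 to 2.76.

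Gdf3 had 3 separate SMAD4 regions. In the strongest, about 607 bp inside the gene, the 4 probes had -0.46, -1.52, -0.78 and 0.15 with SMAD2 and 0.80, 0.46, 0.81 and 1.01 with SMAD4. The inputs of these probes differed by -3.12, -2.85, -0.95 and -0.42. Wnt3, a Wnt ligand needed for the primitive streak, had -0.16 with SMAD2 and 0.94 with SMAD4 over 5 probes around position -3455 bp, with inputs at -0.57. Tgif1 had -0.33 with SMAD2 and 0.71 with SMAD4 over 3 probes centred at -3457 bp, and there the mean input differed by 0.22, in the other direction, with single inputs from -1.26 to 1.19.

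Regions at start sites whose mean input difference was small were singled out after their values were seen. They were peaks within 250 bp of a start with a mean input difference under 0.5 and the higher antibody above the array median. There were 86 for SMAD2 and 5 for SMAD4, of which 4 of each are described. Of all peaks, 667 of 6162 for SMAD2 and 66 of 1711 for SMAD4 lay within 250 bp of a start. That was 10.8% and 3.86%, against 9.47% of all windows. The mean input difference was under 0.5 in 12.9% of all SMAD2 peaks and 16.2% of all SMAD4 peaks. Adora2b, an adenosine receptor gene, had 1.33, 4.18 and 2.31 with SMAD2 and 0.37, 2.11 and 0.88 with SMAD4 at the probes -193, 73 and 238 bp from its start. All 3 probes were above the median with both antibodies, and the inputs differed by -0.70, 1.69 and -0.16, so their small mean hid opposite signs. Phf8, an X-linked histone demethylase gene, had a mean of 1.07 with SMAD2 and -0.64 with SMAD4 over 4 probes, while single inputs ran from -2.94 to 2.55. Sox8, a transcription factor gene of neural crest, had 1.67 with SMAD2 and 0.03 with SMAD4 over 3 probes, and Gas1, a Hedgehog co-receptor gene, 0.58 with SMAD2 and -0.83 with SMAD4 over 5. On the SMAD4 side, Zscan21, a zinc finger gene, had -2.09, 1.19, -0.36 and -0.63 with SMAD2 and -0.81, 2.59, 0.54 and 0.53 with SMAD4. There SMAD4 was higher by 0.90 to 1.40, at each probe because the calling rule requires it. Pde1a, a phosphodiesterase gene, had a mean of -1.05 with SMAD2 and 0.14 with SMAD4 over 5 probes, against -2.83 with SMAD1/5. Erlec1, a lectin of the endoplasmic reticulum, had 1.10 with SMAD2 and 2.15 with SMAD4 over 4 probes, and Mzb1 had 0.14 with SMAD2 and 1.16 with SMAD4 over 5. The single inputs of these 4 regions also ran both ways, from -1.84 to 0.77 in Zscan21, -2.06 to 1.35 in Pde1a, -2.05 to 1.86 in Erlec1 and -0.70 to 2.16 in Mzb1.

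Probes at start sites had a higher mean level than upstream probes with both antibodies, but not within every probe length. Within 250 bp of a start the mean level was 0.69 with SMAD2 and 0.37 with SMAD4, and 2000 to 4000 bp upstream it was -0.09 with SMAD2 and -0.28 with SMAD4. The step was 0.78 with SMAD2, 0.65 with SMAD4 and 0.66 with SMAD1/5. Among probes of 60 bases it was 0.04 with SMAD2 and 0.17 with SMAD4, and among probes of 45 bases it was -0.31 with SMAD2 and -0.26 with SMAD4. The SMAD2 step exceeded that of SMAD4 by 0.127 ± 0.006 (SE over probes of both arrays), by 0.10 on array 1 and 0.15 on array 2. The inputs moved the other way, by -0.14. Among probes of 60 bases the excess was -0.13 and among probes of 45 bases -0.05, and with the intensity trend removed it was -0.0042. Probes of lengths in between were not split. Relative to input the excess was above 0 in each set, with 0.27 over all probes, 0.05 in those of 60 bases and 0.26 in those of 45. Start sites hold more short probes, since 19964 of 37733 probes within 250 bp were 45 bases long, against 6743 of 74226 upstream.

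**Figure D4:**
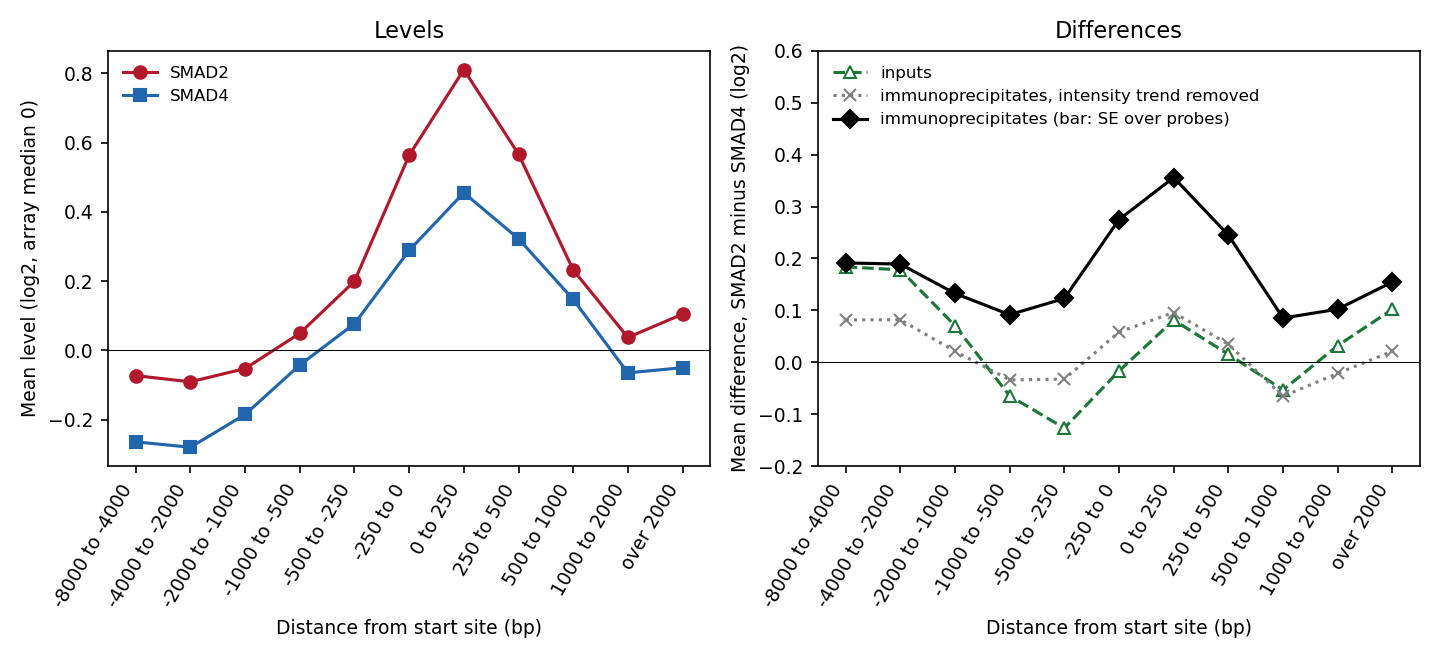
Left, mean level with SMAD2 (circles) and SMAD4 (squares), log2 relative to the array median, by distance of the probe from the annotated start site in bp; right, mean difference between immunoprecipitates (diamonds, SE over probes), between inputs (triangles) and between immunoprecipitates with the intensity trend removed (crosses). Both antibodies peak at the start, where the difference reaches 0.36 in the bin 0 to 250 bp; the trend-removed difference there is 0.10.

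The difference followed probe length and signal level. Probes of 45 bases had a mean difference of 0.54 and probes of 60 bases 0.07, with mean levels of 1.39 and -0.78 with SMAD2 and 0.85 and -0.84 with SMAD4. When probes were cut into 10 bins of equal size by mean level, the difference was 0.34 in the lowest bin, between -0.15 and -0.04 in bins 2 to 5, and 0.75 in the highest. Neighbouring probes 60 to 200 bp apart shared their difference weakly, with r of 0.20 over 241083 pairs, which fell to 0.07 at 300 to 500 bp and 0.02 beyond 20000 bp. For the input difference the values at those distances were 0.36, 0.09 and 0.02.

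Whole chromosomes also differed. On the X chromosome the median level was -0.66 with SMAD2 and -1.05 with SMAD4, and the median difference of 0.59 was far from the 0.11 to 0.21 of the autosomes other than 8 and 11. On chromosomes 8 and 11 levels were raised with both antibodies, 0.41 and 0.45 with SMAD2 and 0.55 and 0.61 with SMAD4, and the differences were -0.03 and -0.05. The inputs showed the same order, with 0.77 on X, -0.12 on 8 and -0.17 on 11. Of the 1405 genes higher with SMAD2, 294 were on X, 20.9% against 3.42% of all genes, and 20 on chromosomes 8 and 11, 1.42% against 13.3%. Of the 99 higher with SMAD4, 31 were on chromosomes 8 and 11 and 0 on X. Apart from these chromosomes, Y and the mitochondrial genome, 1089 of 13980 genes were higher with SMAD2 and 68 with SMAD4. The 43 mitochondrial probes had a median difference of -1.13, with 4.35 with SMAD2 and 5.49 with SMAD4.

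**Figure D5:**
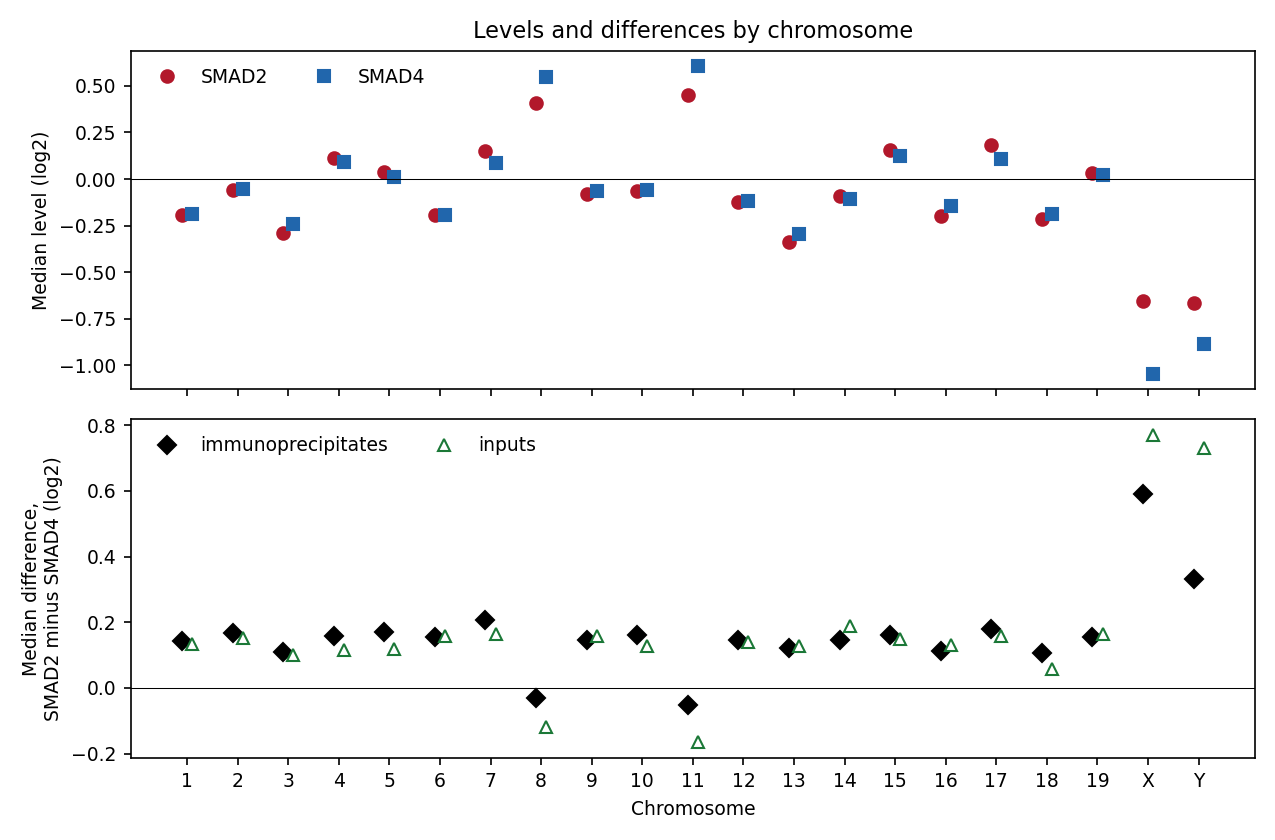
Top, median level of the probes of each chromosome with SMAD2 (circles) and SMAD4 (squares), log2 relative to the array median; bottom, median difference between immunoprecipitates (diamonds) and inputs (triangles), SMAD2 minus SMAD4. X stands highest in the lower panel at 0.59, chromosomes 8 and 11 lowest at -0.03 and -0.05, and inputs follow the same order there.

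Promoter sequence was compared in 13020 measured genes with a RefSeq promoter. CAGAC, searched on both strands, was in 46.6% of 1087 promoters higher with SMAD2, 43.0% of 79 higher with SMAD4 and 48.5% of all. The palindrome GTCTAGAC, a known SMAD binding element that joins AGAC to its complement, was in 2 and 0 of the called promoters and 28 of all. GGCGCC, the GC-rich box bound by SMAD1 and SMAD5, was in 11.4%, 21.5% and 17.3%, TGACTCA, the AP-1 site, in 6.35%, 3.80% and 4.42%, and AATCCACA, a FOXH1 site, in 0.83%, 1.27% and 0.68%, the second of these being 1 promoter. The called groups differed more in base composition. The ratio of observed to expected CpG had a median of 0.29 in promoters higher with SMAD2 and 0.71 in those higher with SMAD4, against 0.66 in all. When genes were cut into 5 bins of equal size by that ratio, from low to high, the share of genes higher with SMAD2 was 18.2%, 9.26%, 5.65%, 4.99% and 3.61%, while the share higher with SMAD4 stayed between 0.346% and 0.730%. The median input difference fell in the same order, with 0.37 in the lowest bin and -0.016 in the highest. These shares rest on all probes of a gene. Within the promoter window itself the median difference did not fall in that order, with 0.28, 0.22, 0.27, 0.34 and 0.31 from the lowest bin to the highest. The median input difference there was 0.36, 0.08, -0.10, -0.07 and -0.13.

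Lists of the strongest genes overlapped in part. Of the 168 genes in the top 1% by level with each antibody, 56 were shared, 33.3% of each list. Of the 168 in the top 1% by level over own input, 8 were shared, 4.76% of each list. Among them were Khk, the ketohexokinase of fructose metabolism, and Cdc26, a subunit of the anaphase-promoting complex. Over own input, in log2, Khk had 0.90 with SMAD2 and 0.92 with SMAD4, and Cdc26 0.87 with SMAD2 and 0.99 with SMAD4. Their levels were nearer the array median, with 0.12 with SMAD2 and 0.03 with SMAD4 in Khk, and -0.18 with SMAD2 and 0.35 with SMAD4 in Cdc26. Defb15 and Defb35, defensin genes, Olfr113, Psg28, 1700029I15Rik and the microRNA gene mmu-mir-135a-1 were the others. These 8 genes had few probes, from 3 in Psg28 to 13 in 1700029I15Rik, against a median of 26 per gene. They were named after their values were seen.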

How the data were processed

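Processed files of 4 two-colour Agilent promoter arrays were used, 2 for SMAD2 and 2 for SMAD4, grouped by title. Cy5 (red) carried immunoprecipitate and Cy3 (green) whole cell extract, per the labels. The deposited scanner files give intensity per spot. Agilent Feature Extraction subtracted background, removed spatial trends and normalised the dyes to give the processed intensity, per the file headers, under a different protocol for each antibody. Other deposited columns are flags of 0 or 1 per spot. The deposited tables also hold the authors' log2 values, made with limma per the submitters' processing notes. Their medians were 0.046 and 0.041 for SMAD2 and -0.0047 and -0.0023 for SMAD4. They correlated with log2 red over green at r from 0.94 to 0.95, so they run as immunoprecipitate over input, but with slopes from 0.72 to 0.90 both scale and centring are unknown. They served as an alternative.

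Spots were matched by feature number, log2 processed red was centred on each array's median over the probes used, and SMAD4 was subtracted from SMAD2. No loess, ratio or scaling was applied. There was no dye swap and no test; calls rest on fold rules. Alternatives were local background subtraction, normexp with offset 50 (limma 3.58.1 in R 4.3.3), quantile normalisation, removal of the intensity trend (lowess fraction 0.3, statsmodels 0.14.6), input subtraction, the authors' values, other filters, centrings, folds and window sizes. The code for gene medians and windows was run on simulated data with known shifts. That noise was independent between probes and narrower than in the data, and the shifted genes had many probes each. The run therefore does not measure how reliable a call is here.

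Of the gene names, 16118 were updated by RefSeq accession, 342 matched a symbol, 371 an older symbol and 263 kept the file's name. All measured genes of the target and pathway lists, the 10 largest called genes and regions in each direction, and up to 4 called members and the extremes of other lists could be named. Not every gene the rule allows is reported. Members and lists were chosen with earlier results of these data known. One listed target gene and 1 region are not reported here.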

Additional observations from a re-analysis of the deposited data

How the results depend on the processing

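Signs of named genes called at 1.5-fold turned under 3 settings. With the inputs subtracted the differences became Csn2 -0.91, Def8 0.42, Fgf4 -0.24, Gdf3 0.61, H3c1 0.15, Inhbb -0.054, Kdm6a -0.16, Krtap4-2 0.44, Mir448 -1.52, Nes -0.38, Olfr1008 -0.086, Olfr1205 -0.37, Olfr1385 0.36, Rplp0 -0.48, Rps27a 0.014, Vmn1r-ps8 -1.21 and Vmn1r29 -0.50. In the authors' deposited log2 values they were Csn2 -0.47, Cyp2b9 -0.31, Def8 0.29, Fgf4 -0.16, Gdf3 0.52, Inhbb -0.028, Kdm6a -0.19, Krtap4-2 0.48, Mir448 -0.85, Nes -0.21, Olfr1008 -0.45, Olfr1205 -0.049, Olfr1385 0.24, Olfr291 -0.074, Rplp0 -0.25, Rps27a 0.0077, Skint3 -0.014, Vmn1r-ps8 -0.88 and Vmn1r29 -0.78. After normexp correction they were Ear14 0.47, Esrrb -0.18, H3c1 0.080, Krtap4-2 0.35, Olfr1385 0.63, Rpl4 0.20, Rps18 -0.51 and Vmn1r213 0.81. The cause was not tested.

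Pearson's r between immunoprecipitates on arrays 1 and 2 was 0.793 and 0.777 with mean signal minus local background, 0.798 and 0.637 with normexp, 0.791 and 0.788 after quantile normalisation, 0.798 and 0.796 with the intensity trend removed and 0.796 and 0.795 without the detection filter. It was 0.783 and 0.780 with inputs well above background on both arrays, 0.052 and 0.049 for the ratios to input, and 0.114 and 0.111 in the authors' deposited values.

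Genes called higher with SMAD2 and with SMAD4 numbered 1405 and 99. They were 935 and 116 with local background subtracted, 675 and 422 after quantile normalisation, 622 and 361 without the intensity trend, 610 and 1677 with inputs subtracted, 338 and 1077 in the authors' deposited values, 739 and 303 with the difference centred on its own median and 236 and 5 at 2-fold. Normexp gave 1716 and 695. Regions, 6162 and 1711, became 3372 and 3252 after quantile normalisation, 3544 and 2486 without the trend, 7157 and 11942 with inputs subtracted, 4833 and 9434 in the authors' values and 3958 and 3226 with own-median centring. They were 1010 and 52 at 3-fold, 3907 and 1004 with 4 probes, and 7947 and 3096 in windows of 250 bp. With inputs subtracted 165 of the SMAD2 peaks and 188 of the SMAD4 peaks were still called. Leaving out saturated spots, requiring 5 probes per gene or centring on all clean spots moved neither count of genes by over 1.5 times. Own-median centring and the filter on inputs were chosen after seeing the data.

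No paired analysis was possible because each antibody has 1 biological replicate, and the numbers in the titles name array designs. SMAD4 spots, at about 5 times background, were dimmer than SMAD2 spots, while more SMAD2 probes were not above background.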
